A study of Rattus norvegicus with 3 samples.

Results

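The genes described here serve protein folding and the stress response of the endoplasmic reticulum (ER) in rat medullary thick ascending limb, or mTAL, the tubule segment of the kidney's outer medulla that takes up salt without water. They form a list of 35 genes chosen by name. A gene was measured when at least 1 probe set of the array carried its symbol and no other, and its brightest probe set, by the mean of the log2 signals, was taken to stand for it. By this rule 34 of the 35 genes were found, with 49 probe sets, among 14217 genes in all. Ern1, the gene of the sensor IRE1, had no such probe set and is not analysed here. All RNA was from Sprague-Dawley males aged 7 to 8 weeks. Each rat had been injected intraperitoneally with furosemide (1 mg), which blocks the salt transporter of this segment, and with heparin (250 u), 30 min before it was killed. Segments were freed by perfusion with collagenase (1 mg/ml) and hyaluronidase (0.5 mg/ml), by 60 min of digestion under oxygen, and by a 33.3% Percoll gradient. The 3 Affymetrix arrays form 1 group without an untreated or undigested control. No label says whether an array holds 1 rat or a pool, so the spread between arrays cannot be read as a spread between rats. Markers of other cells differed widely between the arrays, as given below. The series describes its aim as obtaining the transcriptome of this segment.

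Proteins bound for the membrane or for secretion enter the ER through the Sec61 channel, fold there with the help of lectin chaperones and disulfide isomerases, and are pulled back to the cytosol and degraded when they fail. When unfolded proteins build up, the sensors PERK (Eif2ak3), IRE1 and ATF6 start the unfolded protein response. PERK phosphorylates the initiation factor eIF2α, which slows translation at large but favours that of ATF4, and ATF4 and CHOP (Ddit3) then raise a set of stress genes, while XBP1 and the cleaved ATF6 raise chaperones and degradation factors. The thick limb makes large amounts of uromodulin, a secreted glycoprotein rich in disulfide bonds, and uromodulin mutants that are held in the ER are a known cause of tubulointerstitial kidney disease.

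Most of the machinery gave a signal above background. The background cutoff of an array was the 95th percentile over 73 genes typical of other tissues, a signal of 527, 512 and 514 on replicates 1, 2 and 3 (signals are linear, on a scale with a trimmed mean of 999.993 on each array). A gene was called detected when its log2 signal minus this cutoff was above 0 in limma's one-sided test at a Benjamini-Hochberg adjusted p of 0.05 over all genes. Of the 34 genes 31 were detected, or 91.2%, against 48.7% of all genes measured. With no test, 32 of the 34 were above the cutoff on all 3 arrays, against 51.2% of all genes. The exceptions to the test were Trib3, Chac1 and Sel1l, and the adjusted p of the other genes ran from 0.000121 to 0.00669 (limma, n = 3 arrays). The median gene of the list stood 2.77 ± 0.09 log2 units (SD) above the median of all genes, and the median percentile of the list by mean signal was 88.7. Signals of different genes come from probe sets that hybridise with different strength, so these are places among signals and not orders of transcript abundance. A stricter cutoff, the 99th percentile of those genes, lay between 3891 and 4847 in signal, and by it 12 of the 34 were detected against 5.87% of all genes. That cutoff falls between the brightest of those genes, Cela1 (mean signal 1800) and Myh1 (42933), so it is set by these genes alone. Myh1 stood at percentile 99.8 of all genes by mean signal.

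**Figure D1:**
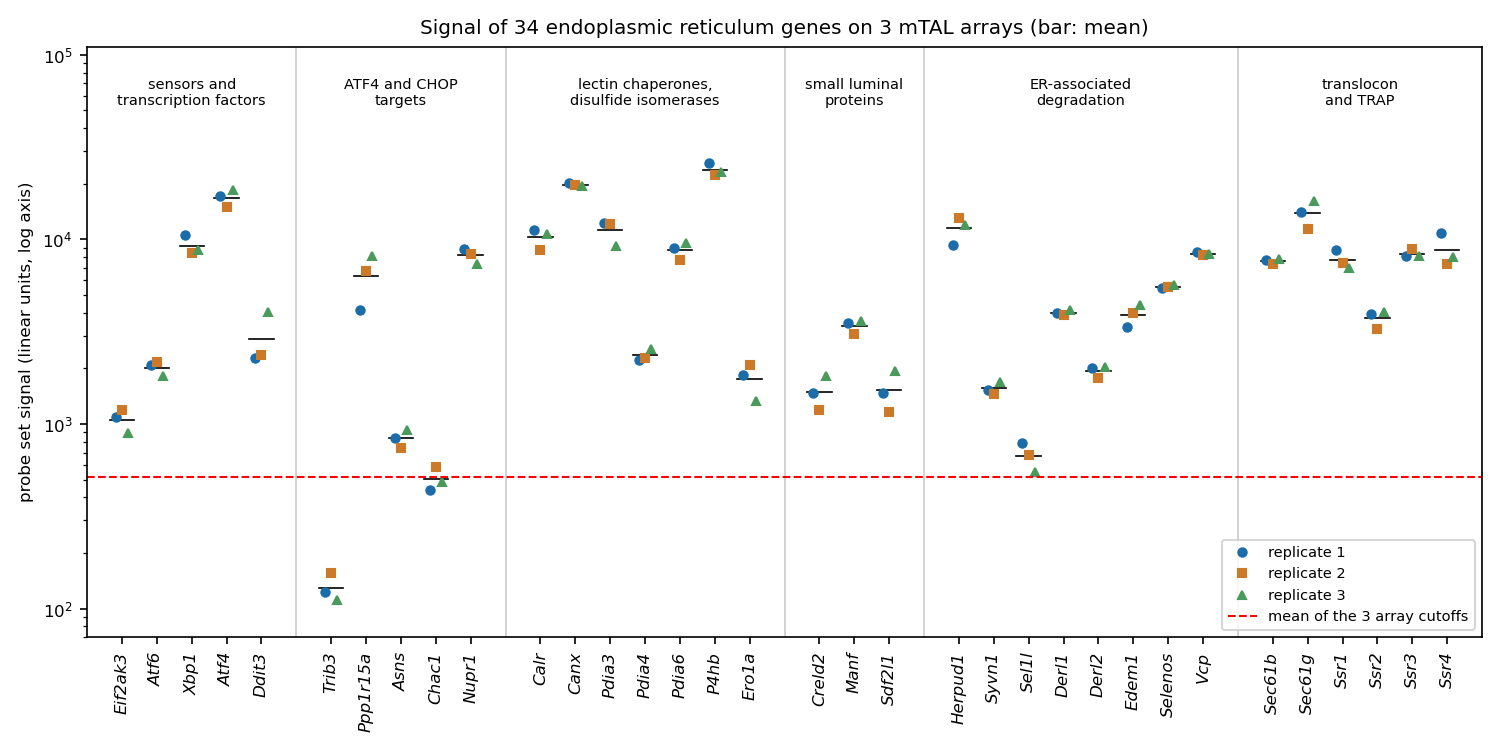
Signal of each of the 34 genes (linear units, log axis) on replicates 1, 2 and 3, with a bar at the mean, grouped by role. The dashed line is the mean of the array cutoffs (527, 512 and 514), and only Trib3 and Chac1 have their mean below it.

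Sequences of the promoters are shown here because the regulators among these genes bind known DNA elements, and because matches to them were found in some promoter windows of the list. RefSeq windows of 300 bases, from 250 before to 50 after the start of the gene on the rat assembly GRCr8, were found for 28 of the 35 genes. The other 7 were not searched. The ER stress response element (ERSE), read by ATF6 and XBP1 together with NF-Y, was searched on both strands as CCAAT followed by CCACG, with 9 bases of any kind between them. It was found in 4 of the 28 windows, those of Xbp1, Calr, Canx and Creld2, and in 22 of all 33469 windows (0.0657%), or 18 of 13243 windows of genes on the array (0.136%). The related ERSE-II, ATTGG and CCACG with 1 base of any kind between them, was found in that of Herpud1 and in 17 of all windows (0.0508%). Of the windows of genes on the array, 11 held it (0.0831%). The amino acid response element, read by ATF4 and its partners, was searched as TTGCATCA, TGATGCAAT and TGATGAAAC, of which TGATGCAAT overlaps the reverse of TTGCATCA by design. TTGCATCA was found in the windows of Chac1, Nupr1 and Herpud1 (0.795% of all windows), TGATGCAAT in Nupr1 at the same place (0.188%), and TGATGAAAC in 0 of the 28 (0.209%). Among windows of genes on the array these shares were 0.627%, 0.189% and 0.151%. The cyclic AMP response element TGACGTCA was found in Ppp1r15a (1.83% of all windows) and the core of the unfolded protein response element, TGACGTGG, in Vcp (0.595%). For genes on the array the shares were higher, at 2.7% and 0.823% of windows. ERSE was first described in the promoters of ER chaperone genes, so its presence in such genes is no independent observation. The same holds for ERSE-II and the amino acid response element, which were also known from genes of these stress responses. A match is a run of letters and not a measured binding site. Only exact spellings within these windows were searched, so a gene without a match cannot be said to lack the element.

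The 250 bases before the start are printed 5′ to 3′ in the direction of the gene, with the ERSE, ERSE-II or amino acid response element in capitals. The Xbp1 stretch is chr14:84604373-84604622 on the plus strand, and its ERSE begins 65 bases before the start. That of Calr is chr19:40213117-40213366 (plus strand), with the ERSE on the opposite strand from 232 bases before the start, so that it reads as its reverse complement. That of Canx is chr10:35157858-35158107 (minus strand), with the ERSE from 230 bases before the start. That of Creld2 is chr7:121789134-121789383 (plus strand), with an ERSE on the opposite strand from 145 bases before the start. Herpud1 lies at chr19:10614708-10614957 (minus strand), with TTGCATCA from 184 and ERSE-II from 124 bases before the start.
Xbp1: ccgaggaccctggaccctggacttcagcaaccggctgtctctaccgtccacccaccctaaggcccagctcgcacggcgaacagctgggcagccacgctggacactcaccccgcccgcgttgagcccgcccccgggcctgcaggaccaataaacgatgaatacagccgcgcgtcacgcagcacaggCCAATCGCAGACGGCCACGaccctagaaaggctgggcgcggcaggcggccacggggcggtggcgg
Calr: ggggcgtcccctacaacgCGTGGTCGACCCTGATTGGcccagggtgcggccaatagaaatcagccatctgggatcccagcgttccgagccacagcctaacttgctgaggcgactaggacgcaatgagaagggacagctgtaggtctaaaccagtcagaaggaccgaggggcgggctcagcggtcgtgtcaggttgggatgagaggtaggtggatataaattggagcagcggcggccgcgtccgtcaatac
Canx: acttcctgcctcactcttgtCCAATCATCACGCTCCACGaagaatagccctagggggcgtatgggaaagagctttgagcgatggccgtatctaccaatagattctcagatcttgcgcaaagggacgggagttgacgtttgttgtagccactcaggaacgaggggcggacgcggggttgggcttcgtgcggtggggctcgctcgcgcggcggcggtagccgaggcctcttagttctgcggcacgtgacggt
Creld2: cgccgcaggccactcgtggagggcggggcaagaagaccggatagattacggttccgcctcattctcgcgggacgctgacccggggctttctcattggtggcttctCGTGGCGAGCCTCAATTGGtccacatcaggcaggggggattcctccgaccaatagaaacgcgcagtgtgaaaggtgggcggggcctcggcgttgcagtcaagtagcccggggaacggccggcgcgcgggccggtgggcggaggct
Herpud1: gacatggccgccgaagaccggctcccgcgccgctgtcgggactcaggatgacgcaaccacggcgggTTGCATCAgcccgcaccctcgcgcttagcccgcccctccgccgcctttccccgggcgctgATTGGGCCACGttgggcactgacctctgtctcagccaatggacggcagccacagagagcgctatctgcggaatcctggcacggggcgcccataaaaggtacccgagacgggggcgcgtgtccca
The stretches of the ATF4 targets with an amino acid response element are chr3:126795881-126796130 (plus strand) for Chac1, where it begins 167 bases before the start, and chr1:190645902-190646151 (minus strand) for Nupr1, where the capitals span both overlapping spellings from 56 bases before the start.
Chac1: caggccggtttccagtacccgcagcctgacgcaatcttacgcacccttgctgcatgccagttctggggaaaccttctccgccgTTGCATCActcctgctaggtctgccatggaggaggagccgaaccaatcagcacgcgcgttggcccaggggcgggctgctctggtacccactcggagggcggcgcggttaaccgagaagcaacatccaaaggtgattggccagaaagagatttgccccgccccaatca
Nupr1: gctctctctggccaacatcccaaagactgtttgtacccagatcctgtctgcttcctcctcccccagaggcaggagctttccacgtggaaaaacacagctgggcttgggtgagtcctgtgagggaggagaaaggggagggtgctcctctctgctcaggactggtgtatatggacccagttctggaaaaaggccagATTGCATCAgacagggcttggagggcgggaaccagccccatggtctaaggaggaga

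**Figure D2:**
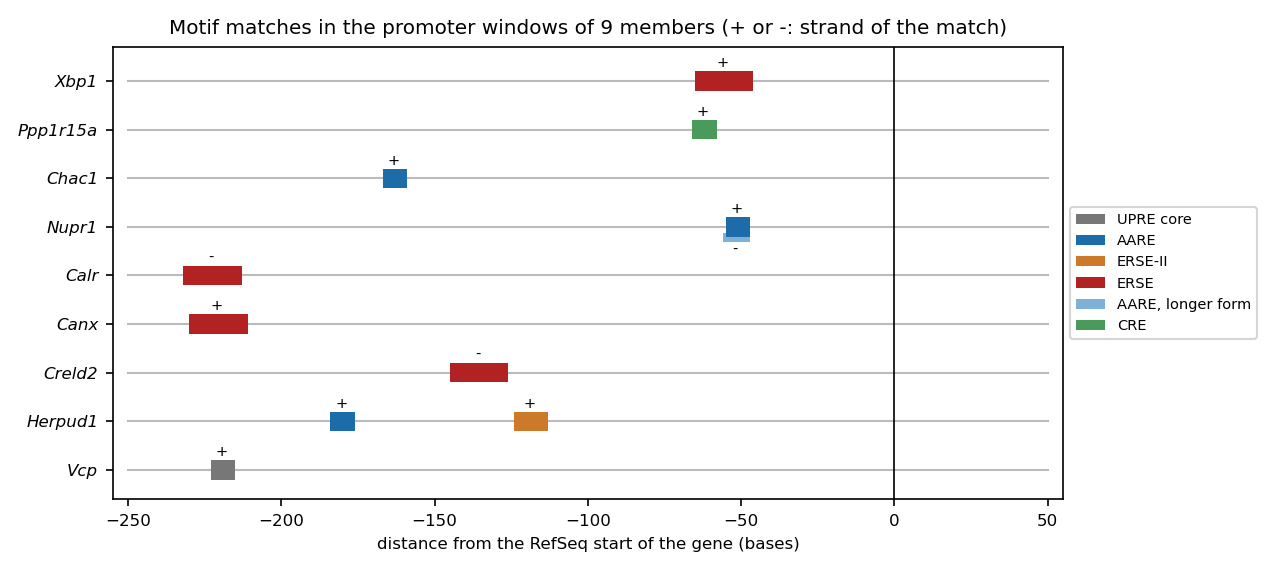
Matches to the searched elements in the promoter windows of the 9 genes of the list that hold any, by distance from the RefSeq start in bases, with the strand of each match. ERSE lies from 65 to 232 bases before the start in Xbp1, Creld2, Canx and Calr, and Herpud1 holds both ERSE-II and an amino acid response element.

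The sensors and transcription factors were all detected as far as they were measured (5 of 5). Atf4, whose protein is controlled mostly at translation, had signals of 17088, 15014 and 18391 on replicates 1, 2 and 3, a mean of 16831 ± 1703 (SD) and 5.02 log2 units above the cutoff. Xbp1, whose mRNA is spliced by IRE1 to give the active factor, had 10500.0, 8469 and 8748. The probe set gives 1 value for the gene, so spliced and unspliced Xbp1 were not separated. Both genes were far above the cutoff on every array and ranged by 1.22-fold and 1.24-fold between arrays. Atf6, the membrane-bound factor that is cut in the Golgi, had signals of 2074, 2152 and 1812. Eif2ak3, which encodes PERK, had 1087, 1190 and 891, and stood 1.02 ± 0.13 (SE) log2 units above the cutoff (limma adjusted p = 0.00331). For these sensors replicate 3 was the lowest array. Ddit3, the gene of CHOP, went the other way, with 2284 and 2370 on replicates 1 and 2 and 4032 on replicate 3. Its probe set carries the suffix that Affymetrix gives to sets matching several transcripts of one gene.

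The targets of ATF4 and CHOP were the group with the smallest share detected (3 of 5, or 60.0%, against 48.7% of all genes). Nupr1, a small nuclear stress protein, had signals of 8849, 8340 and 7369. Ppp1r15a encodes GADD34, the phosphatase subunit that reverses the phosphorylation of eIF2α, and had 4124, 6733 and 8123, with replicate 1 lowest by far. Asns, the asparagine synthetase gene, had 841, 741 and 923, only 0.68 log2 units above the cutoff (limma adjusted p = 0.00669). These 3 genes were above the cutoff on all arrays. Chac1, an enzyme that breaks down glutathione, lay around it, with 437, 587 and 485 (log2 signal minus cutoff -0.05, adjusted p = 1 by limma). With the cutoff at the 90th percentile, where 57.6% of all genes were called, Chac1 was detected (limma adjusted p = 0.0122), and over all alternatives its adjusted p ran up to 1. Trib3, a pseudokinase induced by CHOP, had 122, 156 and 111, and its log2 signal minus cutoff was -2.01 (adjusted p = 1 by limma). The other Trib3 probe sets were also below the cutoff on every array, with 121, 56.7 and 111 on one and 10.1, 155 and 21.5 on the other. The cutoff sets a floor, and expression under it cannot be seen here.

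Genes of the folding cycle were all detected (7 of 7) and included the highest signals of the list. P4hb, the classical protein disulfide isomerase, had 25857, 22160 and 23018, a mean 5.51 log2 units above the cutoff. The lectin chaperones calnexin and calreticulin hold glycoproteins during folding, and Canx had 20082, 19696 and 19469, while Calr had 11229, 8738 and 10738. Pdia3 encodes ERp57, the isomerase that works with both lectins, and had 12312, 12052 and 9242. Canx was among the most even genes of the list (1.03-fold between arrays), whereas Calr was lowest on replicate 2 and Pdia3 on replicate 3. The further isomerases Pdia6 and Pdia4 had 9005, 7744 and 9525, and 2214, 2286 and 2544. Ero1a, the oxidase that recharges the isomerases, had 1834, 2081 and 1336, with replicate 3 lowest and a range of 1.56-fold.

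The small luminal proteins that stress is known to induce were detected as well (3 of 3). Manf, a secreted neurotrophic factor that the ER retains, had signals of 3503, 3081 and 3599. Sdf2l1, a partner of ER chaperone complexes, had 1469, 1164 and 1931. Creld2 had 1462, 1185 and 1808. Each of the 3 genes was lowest on replicate 2 and, by these signals, highest on replicate 3, by 1.17-fold, 1.66-fold and 1.53-fold. After centring each array on its median gene, Manf was highest on replicate 1 (a deviation of 0.18 from the other arrays' mean, against 0.06 on replicate 3).

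Genes of ER-associated degradation were detected with 1 exception (7 of 8). Herpud1, a membrane protein that gathers the degradation complex, had signals of 9263, 13102 and 12009, with replicate 1 lowest. Vcp encodes the ATPase that pulls substrates into the cytosol and had 8502, 8268 and 8281, a range of 1.03-fold. Selenos, a selenoprotein that anchors this ATPase at the membrane, had 5461, 5489 and 5638. These last genes hardly differed between arrays. Derl1 and Derl2, which form part of the channel, had 3997, 3870 and 4123, and 2004, 1764 and 2036. Edem1, which delivers glycoproteins trimmed of mannose, had 3366, 3986 and 4389. Syvn1, the ubiquitin ligase HRD1, had 1529, 1444 and 1695 and was detected (1.58 log2 units above the cutoff, limma adjusted p = 0.000507). Its adaptor Sel1l had 784, 679 and 549. Sel1l was thus above the cutoff on all 3 arrays, by 0.36 ± 0.14 (SE) log2 units, but missed the threshold (limma adjusted p = 0.071). Over the alternatives its adjusted p by limma ran from 9e-04 to 1, and it was called detected without Myh1 among the other-tissue genes, at the 90th percentile, with a filter on low values and with the median over probe sets. Sel1l has 1 probe set, so in the last of these its own signal stayed the same, while the cutoffs were lower (391 to 423 in signal).

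All 6 measured subunits of the translocon and of the translocon-associated protein (TRAP) complex were detected. Sec61g and Sec61b, the small subunits of the channel, had signals of 14098, 11413 and 16025, and 7736, 7354 and 7832. The TRAP subunits help some signal sequences to enter, and Ssr4 had 10877, 7322 and 8044, Ssr3 had 8128, 8838 and 8079, Ssr1 had 8755, 7461 and 7008, and Ssr2 had 3950, 3251 and 4034. Of the 4 TRAP genes, which encode subunits of 1 complex, Ssr4 differed most between arrays (1.49-fold, replicate 1 highest) and Ssr3 least (1.09-fold). Log2 signals of the 6 genes stood from 2.85 (Ssr2) to 4.73 (Sec61g) above the cutoff.

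Other genes of the same pathways, taken from 6 lists, were detected in 100 of 123 cases (81.3%, against 48.7% of all genes). All 27 further genes of the translocon, signal peptidase and oligosaccharyltransferase were detected, with Sec62 (16853 ± 1054, SD), Spcs1 (16039 ± 814) and Dad1 (11355 ± 286) highest and Sec61a2 (1760 ± 124) and Stt3a (1257 ± 258) lowest. Of 21 degradation genes 20 were detected, led by the lectin Erlec1 (8486 ± 451), Selenok (7741 ± 298) and Erlin2 (6982 ± 337). The lowest were the ubiquitin-conjugating enzyme Ube2g2 (945 ± 99.1, detected) and Edem3 (11.9 ± 3.94, not detected). Of 19 chaperones and quality control genes 14 were detected, led by the cyclophilin Ppib (17973 ± 944), Hspa5 (12089 ± 1189), which encodes BiP, and Hsp90b1 (9612 ± 819). The lowest were Fkbp7 (295 ± 77.2) and the glucosyltransferase homologue Uggt2 (23.9 ± 25.7), neither detected. BiP is the chaperone that binds the sensors at rest, and its signals on the arrays were 12600, 10730 and 12936. Replicate 2 was the lowest for BiP, whereas Hsp90b1 was lowest on replicate 1 (9016, 9273 and 10546).

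Oxidative folding genes outside the list were detected in 11 of 15 cases, led by Tmx4 (4265 ± 470), Erp29 (3931 ± 377) and Tmx3 (3917 ± 346), and Gpx7 (252 ± 74.3) and the pancreatic isomerase gene Pdia2 (10.9 ± 7.01) were lowest and not detected. Of 20 further sensors and factors 14 were detected, led by Tmbim6 (26379 ± 1994), an ER membrane protein that limits cell death, the transcription factor Cebpb (4145 ± 1262) and Rtcb (3535 ± 285), the ligase that joins Xbp1 mRNA after IRE1 has cut it. The lowest of this group were Wfs1 (262 ± 54.3) and Creb3l3 (98.1 ± 106), neither detected. Further targets of ATF4 and CHOP were detected in 14 of 21 cases, with Atf3 (14455 ± 8977), Slc3a2 (9152 ± 889) and Gars1 (5203 ± 351) highest and Stc2 (51.8 ± 40.0) and Aldh1l2 (19.9 ± 5.92) lowest and not detected. By the stricter cutoff 15 of the 123 were detected, against 5.87% of all genes. Promoter windows were found for 107 genes of these lists, whether measured or not. ERSE matched 5 of the 107 (Hspa5, Hsp90b1, Dnajc3, Ero1b and Derl3, the last not among the measured genes) and ERSE-II matched Dnajb11 and Hyou1. The core of the unfolded protein response element matched 6 (Dnajc10, Hyou1, Srp19, Txndc11, Ube2g2 and Ube2j1), and TTGCATCA matched 3 (Fgf21, Nars1 and Ppp1r15b).

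**Figure D3:**
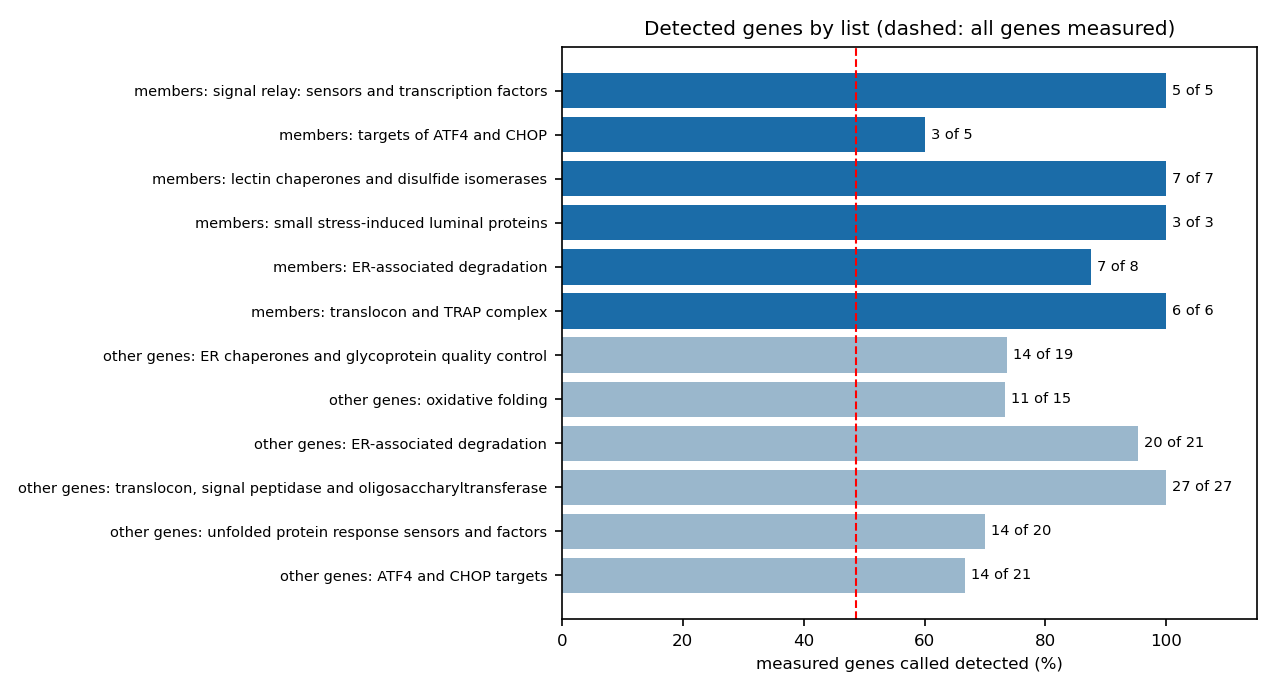
Share of the measured genes called detected (%) in each role group of the list (dark bars) and in the 6 lists of other genes of the same pathways (light bars), with counts. The dashed line is the share among all genes measured, 48.7%, and every group lies above it, the ATF4 and CHOP targets by the least (3 of 5).

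The arrays differed little in most of these genes. The median range between the lowest and highest array was 1.24-fold, against 1.21-fold for all genes called detected and 1.39-fold for all genes. None of the 34 reached 2-fold, against 2.31% of all genes called detected, and 5 of the 34 (14.7%) exceeded 1.5-fold, against 10.6% of all genes called detected. These were Ppp1r15a (1.97-fold), Ddit3 (1.77-fold), Sdf2l1 (1.66-fold), Ero1a (1.56-fold) and Creld2 (1.53-fold). After centring on the median gene of each array, the list's median deviation from the other arrays' mean was 0.14, -0.10 and -0.01 log2 units on replicates 1, 2 and 3, and that of all genes called detected was 0.14, -0.06 and -0.06. The deviation on replicate 2 turned to 0.0111 when quantile normalization came before the centring, and without centring the deviations were 0.04, -0.07 and 0.06. After centring, the highest value fell on replicate 1 for 19 of the 34 genes (55.9%, against 57.1% of genes called detected) and the lowest on replicate 2 for 19 (55.9%, against 42.4%). Which array was highest depended on the scaling. By the deposited signals, without centring, replicate 1 was highest for 10 of the 34 (29.4%, against 38.1%), replicate 3 for 17 (50%, against 32.8%), and replicate 2 was lowest for 17 (50%, against 40.4%). Each array is 1 sample, so none of these differences has a test.

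**Figure D4:**
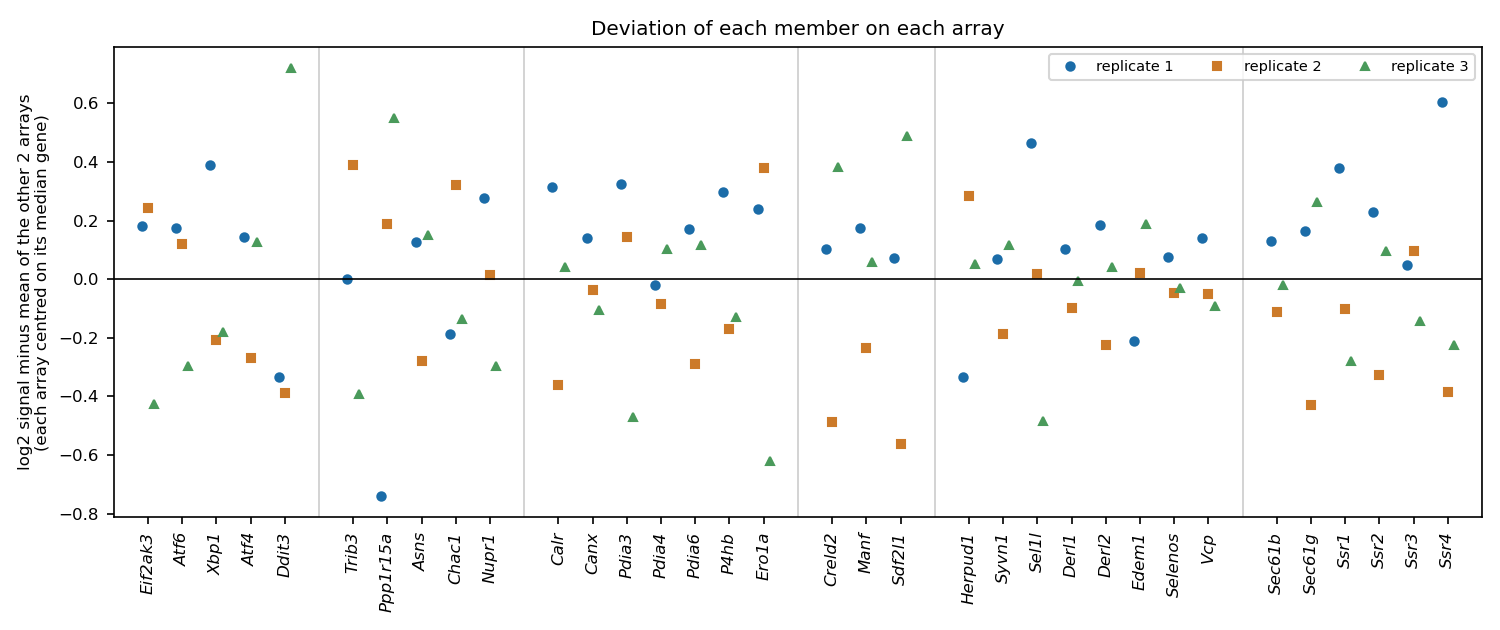
Deviation of each gene on each array, as its log2 signal minus the mean of the other arrays after centring on the median gene. Ddit3 is 0.72 above on replicate 3 and Ppp1r15a -0.74 on replicate 1, and most other points lie within 0.5 of 0.

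Signs of other cells and of RNA quality also differed between the arrays. All 14 thick limb markers were detected, and their summed signal was 271866, 264606 and 248143 on replicates 1, 2 and 3. Of 21 proximal tubule markers 2 were detected by the test over the 3 arrays, Hao2 and Ggt1. Kap (169, 7164 and 26093) and Slc7a13 (124, 3301 and 13569) were not called, although above the cutoff on replicates 2 and 3. Others, such as Slc5a2 (15.2, 161 and 293), were below it on every array. After centring, 20 of the 21 were higher on replicate 3 than on replicate 1. The sum of all 21 was 7593, 29355 and 93221, with the lowest array replicate 1 and the highest replicate 3. Ppp1r15a and Edem1 had the same order of arrays, before and after centring. Ddit3, Pdia4 and Selenos had it by their deposited signals only. After centring Ddit3 was lowest on replicate 2 (deviations of -0.33 and -0.39 on replicates 1 and 2). Sums for other cells were also lowest on replicate 1, where Ppp1r15a, Herpud1, Edem1 and Chac1 were lowest. They were 27326, 72996 and 41454 for thin limb markers and 16099, 27702 and 24859 for endothelial ones, both highest on replicate 2 like Herpud1. Principal cell markers summed to 11958, 16716 and 25905.5, and fibroblast and mural cell markers to 2712, 5948 and 6146. The largest principal cell signal on replicate 1 was that of Tfcp2l1 (6184, 6545 and 9186 on replicates 1, 2 and 3). Avpr2 ran the other way (2085, 1930 and 1552). After centring, 8 of the 10 principal cell markers were higher on replicate 3 than on replicate 1. For Actb, the 3′ control probe set exceeded the 5′ one, a gap that widens in degraded RNA, by a log2 difference of 1.48, 1.18 and 1.95 on the arrays. For Gapdh the difference was smaller, at 0.51, 0.43 and 0.60. The part of either in the differences of Ppp1r15a, Ddit3, Edem1, Ero1a or the small luminal proteins was not tested. Of 10 plasma cell markers 6 were measured and 1, Sdc1, was detected. Their sum was 1163, 1598 and 1721, and Jchain, which joins antibody chains, had signals of 64.9, 48.4 and 133. Among the further stress genes, Atf3 had 7444, 11350 and 24573 and Cebpb 2716, 4613 and 5107 (picked with their values in view). In the list of further ATF4 and CHOP targets, 10 of 21 genes were higher on replicate 3 than on replicate 1 after centring. Among all genes 5521 of 14217 were, and among genes called detected 1980 of 6927. The median deviation of that list on replicate 3 was -0.055, against -0.06 for genes called detected. Whether the list shares the order of Atf3 and Cebpb was not tested. Fewer cells of a type and less RNA per cell cannot be told apart in such bulk samples.

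Where a gene of the list had more than 1 probe set, these did not all give the same pattern over the arrays. There were 10 such genes, and 15 probe sets besides the ones that stood for the genes, of which 10 had a mean above the cutoff. The Derl1 probe sets lay within 1.52-fold of each other by mean log2 signal, and all were above the cutoff on every array. The brightest Canx probe set was even over the arrays (20082, 19696 and 19469), while another fell from 19658 on replicate 1 to 14862 on replicate 3 and the dimmest gave 5698, 4536 and 2539, 2.24-fold lower on replicate 3 than on replicate 1. For Ssr3 the brightest probe set gave 8128, 8838 and 8079 and the dimmest 979, 950 and 442, the last of these below the cutoff. The remaining Ssr3 probe set went the other way, with 3546, 3648 and 4144 and replicate 3 highest. The second probe set of Pdia3 (629.8, 474 and 438) was above the cutoff on replicate 1 only. The dimmer probe sets of Atf6 (195, 217 and 120) and Ero1a (325, 225 and 212) were below the cutoff on all arrays, so the calls of these 3 genes rest on 1 probe set each. With the median over probe sets in its place Atf6 was no longer called (limma adjusted p = 0.056). Pdia3 and Ero1a still were (limma adjusted p = 0.000454 and 0.0244). Relative to the brightest probe set of the same gene, 11 of the 15 others were lower on replicate 3 than on replicate 1, and the median difference was -0.23 (log2). Among all such pairs on the array 4185 of 6609 (63.3%) were lower, with a median of -0.23. Among probe sets with a mean above the cutoff, 8 of 10 of the list were lower, with a median of -0.33, and 67.8% of 1923 on the array, with a median of -0.19. The Actb gap between 3′ and 5′ was widest on replicate 3 too (1.95), and its part in the contrast was not tested.

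**Figure D5:**
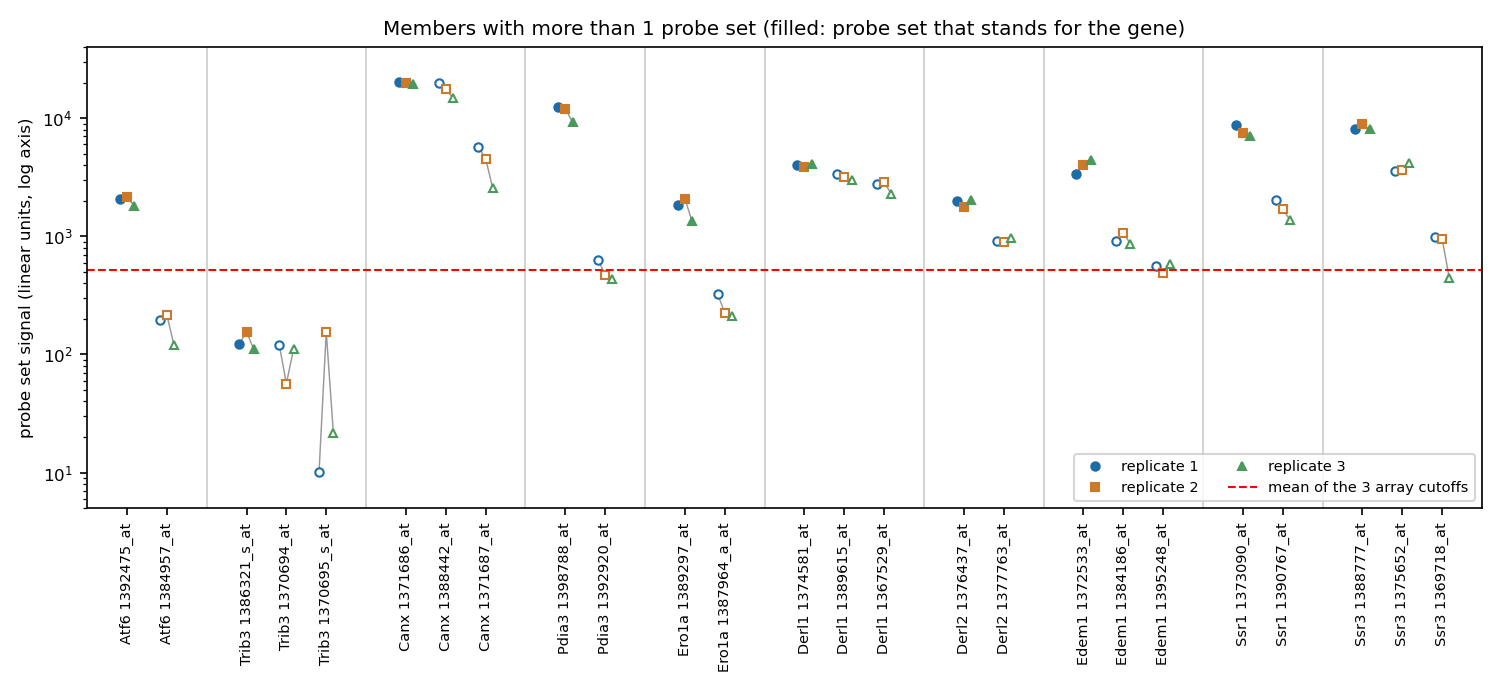
Signal (linear units, log axis) of every probe set of the 10 genes with more than 1, on replicates 1, 2 and 3, with filled points for the probe set that stands for the gene. The dimmest Canx and Ssr3 probe sets are lowest on replicate 3 (2539 and 442) while the brightest are nearly even, and all Trib3 probe sets lie below the dashed line, the mean cutoff.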

How the data were processed

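Biotin-labelled cRNA was made from total RNA by Affymetrix's standard procedure, per the labels' protocols. Each deposited value is the intensity of 1 probe set, linear and already summarised by the authors, and how it was summarised and scaled is not given in the sources used here. Without the lowest and highest 2%, the values of each array had a mean of 999.993. All were positive, and their log2 was used with no pseudocount or further scaling.

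Of 31099 probe sets, 57 were controls, 20826 carried 1 gene symbol in the platform annotation, 436 several and 9780 none, and only those with 1 were used. The identifiers of all 49 probe sets of the list matched the RefSeq gene table of GRCr8 with the same symbol. Promoter windows come from RefSeq (GRCr8), with 1 window for each matched gene of the list.

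Detection was tested with limma 3.58.1 in R 4.3.3 (lmFit and eBayes, one-sided). The test was checked on simulated data first, with 50 genes placed at each of several log2 distances from the cutoff. It called 0 of 50 at -1, 1 at 0, 35 at 0.5, 36 at 1, 47 at 2 and 49 at 4. The placed genes were picked at random and each kept its own SD between arrays. In log2 the median SD was 0.25 over all genes, 0.14 over genes called detected and 0.17 over the list. Genes slightly above the cutoff can be missed in this setting, but the counts are not a miss rate for genes of the list. Precision is limited by having 3 arrays.

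The genes of the list, their role groups and the other lists were chosen with earlier results of these data known. All measured genes of the list are named, and of every other ER list the 3 detected genes with the highest and the 2 genes with the lowest mean signal. Other names were chosen after their values were seen. Some entries of the other lists give 2 spellings of 1 gene. The alternatives were other cutoffs, quantile normalization, a common 75th percentile, a pseudocount of 16, a filter on low values, other choices of probe set, leaving out each array and, added after seeing the data, signals that were not centred. Protein sequences were not used here.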

Additional observations from a re-analysis of the deposited data

How the results depend on the processing

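The stricter cutoff changed the counts most. It lies between the signals of the brightest other-tissue genes, Cela1 and Myh1, and by it 12 of the 34 genes of the list and 15 of the 123 other ER genes were detected, in place of 31 and 100. Under every other setting run, 30 to 33 genes of the list were detected (30 where only probe sets ending in _at were used, which leaves out Ddit3) and 97 to 105 of the other ER genes, while 45% to 57.6% of all genes were called. Leaving out any 1 array left 31 of the list and 97 of the others. The level of the list above the median gene was 2.77 log2 units, 2.95 with the median over probe sets and 2.94 with only probe sets ending in _at. Both settings change the probe sets of all genes, so the median gene from which the level is counted changes too. The latter setting also leaves out Ddit3, and the part of each was not tested. The deviation on replicate 2 was -0.10, and 0.0111 with quantile normalization before the centring, and the cause was not tested. Without centring, a setting chosen after seeing the data, the deviation on replicate 1 was 0.0397 in place of 0.14, since the centring itself shifts each array. The swap of the other-tissue list for another was not run. No paired analysis was possible because the study has 1 group.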

Other observations

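Among the enzymes that attach glycans to proteins in the ER, the order of the arrays differed between paralogues (they were picked with their values in view, and no difference between arrays has a test). The thioredoxin-like subunits Magt1 and Tusc3, which serve the same oligosaccharyltransferase, had signals of 2987, 3031 and 1778, and of 6478, 6104 and 8250, on replicates 1, 2 and 3, so that replicate 3 was lowest for the one and highest for the other. Of the catalytic subunits, Stt3a had 1504, 1277 and 989 and Stt3b 8543, 9254 and 13217, again with replicate 3 at opposite ends. Gdf15, a secreted stress factor that CHOP can raise, had 328, 1041 and 374, and stood above the cutoff on replicate 2 only.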
